A study of Mus musculus with 4 samples.

Results

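The genes described here are 31 lysosomal genes of the mouse, a list fixed by name. It holds proteases, hydrolases, their cofactors and inhibitor, and lysosomal membrane proteins. The list was chosen with earlier results of these data known, so the shares of all genes set beside its counts are a description. All 31 were found in each of the 4 deposited tables, which together name 27487 genes. Cortical cells were profiled by Drop-seq, a droplet method that counts the 3′ ends of polyadenylated RNA by unique molecular identifiers (UMIs). The cells came from heterozygous Tg2576 mice (B6;SJL-Tg(APPSWE)2576Kha), which carry human amyloid precursor protein with the Swedish mutation under the hamster prion promoter, and from wildtype littermates without the transgene. Animals of both sexes were 24 weeks old, were perfused with PBS and had the cortex dissociated, and 9 mice were pooled into each library. There was 1 library for each sex and genotype, so that no library had a replicate of its own sex and genotype, and the 2 sexes stood as the 2 libraries of a genotype.

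Lysosomes are acidified organelles in which proteins, glycans and lipids taken up from outside the cell or delivered by autophagy are broken down. Cathepsins and legumain cut proteins, glycosidases and lipid hydrolases take apart glycoconjugates and lipids, saposins and related proteins lift lipids out of membranes for the hydrolases, and heavily glycosylated membrane proteins line the organelle. In the brain, microglia and other phagocytes are known for a large lysosomal compartment, and inherited defects of many of these genes cause lysosomal storage diseases of the nervous system.

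After filtering, 4835 cells with 6603048 UMIs remained, between 1010 and 1532 cells per library. The median of UMIs per cell was 1331.5 in female wildtype, 1043 in female Tg2576, 1320.5 in male wildtype and 909 in male Tg2576 mice. Mitochondrial genes took 9.27%, 9.92%, 6.89% and 5.00% of the UMIs of these cells in the same order. With 1 library for each sex and genotype, these differences in depth and mitochondrial share cannot be told apart from genotype. Between 11 and 17 cell barcodes were shared by any 2 libraries. *Xist* had 1648 and 1479 UMIs in the female libraries and 0 and 3 in the male ones. *App*, the mouse counterpart of the transgene, had 1416 UMIs in female wildtype, 2521 in female Tg2576, 1944 in male wildtype and 2756 in male Tg2576 cells, and *Prnp* had 779, 1172, 940 and 1921. Both were higher in the Tg2576 library of each sex. Cells were clustered without the 31 genes, and clusters were named from listed markers. 7 groups had at least 20 cells in every library: microglia (2 clusters of 1186 and 587 cells), astrocytes, oligodendrocytes, macrophages, mural cells, neuroblasts or progenitors, and a cluster of 903 cells that expressed all 9 listed endothelial markers but was led by 4 haemoglobin genes and is called the endothelial-marker cluster here. The macrophage cluster matched all 7 macrophage markers but held the ependymal genes *Ccdc153* and *Tmem212* and the neutrophil gene *Camp* among its leading genes, and had 34 to 56 cells per library. Levels are given as UMIs per 1000000 UMIs (counts per 1000000, CPM) of all cells of a type in a library. Clusters of choroid plexus, oligodendrocyte precursor cells (OPCs), neurons, olfactory ensheathing glia and a second endothelial cluster had fewer than 20 cells in at least 1 library and were not compared, so that every order of types given here is among the 7. Because UMIs of a type were summed, less RNA per cell and fewer cells of a subtype cannot be told apart.

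By the mean of the 4 libraries, 20 of the 31 genes had their highest level in microglia among the 7 types, beside 18.1% of all 8440 genes with at least 100 UMIs. For 11 of these 20 the 4 microglial values lay above every value of every other type, beside 4.56% of all genes. These counts moved with the cell filter and the clustering: 15 genes were highest in microglia and 2 without overlap with no mitochondrial limit, and 17 and 6 at resolution 1. In the macrophage cluster the 10 listed microglial markers summed to 31.4% to 62.0% of their microglial level, and 18 of the 31 genes did not exceed that share in all 4 libraries. How many of all genes did not exceed it is not given here. The part of microglial RNA in the macrophage values given here was not tested. With that cluster left out, 22 of 31 were highest in microglia, beside 20.6% of all genes, and 19 of them without overlap, beside 8.89%. Taken as a sum, the 31 genes made up 53143 CPM in microglia of female wildtype mice, 59291 in female Tg2576, 66133 in male wildtype and 76573 in male Tg2576. The sum was between 36217 and 42504 CPM in macrophages, between 15174 and 22177 in astrocytes, between 4890 and 9146 in oligodendrocytes and between 5046 and 6547 in the endothelial-marker cluster.

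**Figure D1:**
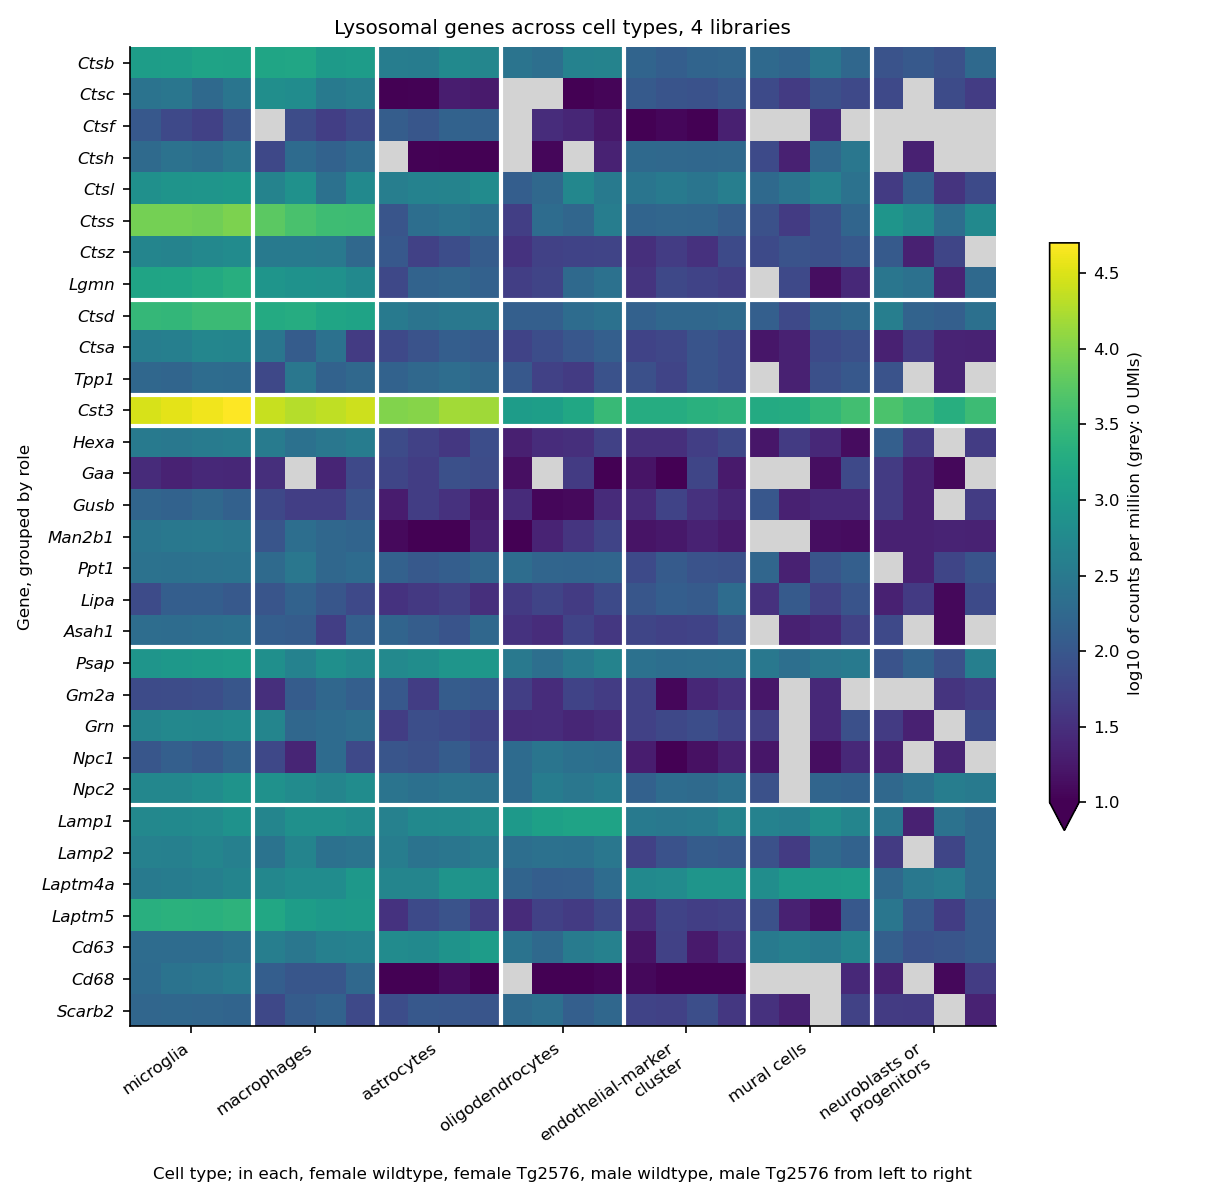
Heat map of log10 CPM for the 31 genes (rows, grouped by role) in 7 cell types with 4 libraries each (columns); grey marks 0 UMIs and the colour scale ends at 10 CPM. The bright columns are microglia, where the sum of the genes ran from 53143 to 76573 CPM, and *Lamp1* is brightest in oligodendrocytes.

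Among the cysteine proteases, *Ctss*, which encodes cathepsin S, a protease that remains active at neutral pH and trims the invariant chain of MHC class II, was at 8362 CPM in microglia of female wildtype mice, 8324 in female Tg2576, 7853 in male wildtype and 9212 in male Tg2576. In macrophages it ranged from 3440 to 5935 CPM and in astrocytes from 94.5 to 254 CPM. All 4 microglial values were above all others. UMIs of *Ctss* were found in 97.6% to 99.3% of microglia and in 7.28% to 10.98% of astrocytes. After thinning every cell to 500 UMIs these shares were 95.9% to 97.9% and 3.65% to 5.76%. In astrocytes, the 10 microglial markers summed to 1.63% to 3.33% of their microglial level, a measure of the microglial RNA found there, and *Ctss* did not exceed that share in all 4 libraries. The same held in astrocytes for *Cd68*, *Ctsh*, *Laptm5* and *Man2b1*, while the other 26 genes lay above that share in every library. How many of all genes lay above it is not given here, so this count does not set the lysosomal genes apart.

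*Lgmn*, the asparaginyl endopeptidase legumain that also processes cathepsins, had 1432, 1505, 1762 and 2097 CPM in microglia of female wildtype, female Tg2576, male wildtype and male Tg2576 mice, and at most 862 CPM in any other type. *Ctsz*, a carboxypeptidase, followed the same pattern at 459 to 610 CPM in microglia against 178 to 339 in macrophages. *Ctsl* was at 730 to 895 CPM in microglia and overlapped with macrophages, which reached 750. *Ctsb* did not separate the phagocytes: it was at 1157 to 1396 CPM in microglia and 1040 to 1524 in macrophages, and at most 573 elsewhere. *Ctsc*, which encodes dipeptidyl peptidase 1, the activator of granule serine proteases, was instead highest in macrophages, at 670, 629, 338 and 377 CPM in the same order of libraries, and all 4 values exceeded the 183 to 279 CPM of microglia. These macrophage values rested on 14 to 26 UMIs per library, found in 10.7% to 20.6% of the cells of that cluster. The Poisson intervals of its male libraries began at 185 and 220 CPM. *Ctsh* was at 189 to 293 CPM in microglia and at 175 to 185 in the endothelial-marker cluster, and overlapped with macrophages, which reached 200, and mural cells, which reached 291. It encodes an aminopeptidase. *Ctsf* had its highest mean in astrocytes, with values from 98.6 to 144 CPM that overlapped with the 51.5 to 104 CPM of microglia.

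Of the aspartic and serine proteases, *Ctsd*, the main aspartic protease of the lysosome, had 2908, 2821, 3288 and 3302 CPM in microglia of female wildtype, female Tg2576, male wildtype and male Tg2576 mice and at most 1984 CPM elsewhere. *Ctsa*, the protective protein of neuraminidase and beta-galactosidase, was at 375 to 496 CPM in microglia and at most 287 in any other type. *Tpp1*, a tripeptidyl peptidase, did not separate microglia at 159 to 206 CPM from astrocytes at 148 to 208 or from macrophages, which reached 290. *Cst3* encodes cystatin C, a secreted inhibitor of cysteine cathepsins. Its level was 29633 CPM in microglia of female wildtype mice, 35208 in female Tg2576, 41140 in male wildtype and 48726 in male Tg2576. Both male libraries were above both female ones. In astrocytes it was at 9937, 10665, 15211 and 14762 CPM in the same order, again higher in both male libraries, and 95.9% to 98.2% of astrocytes held a UMI of it.

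Of the 7 glycosidases and lipid hydrolases, 5 were highest in microglia. *Gusb*, beta-glucuronidase, was at 140 to 175 CPM in microglia and at most 100 elsewhere. *Man2b1*, the lysosomal alpha-mannosidase, was at 270 to 311 CPM in microglia and at most 218 in macrophages, and *Asah1*, acid ceramidase, was at 206 to 235 CPM in microglia and at most 171 elsewhere. *Hexa* and *Ppt1* did not separate microglia from macrophages, with 300 to 365 against 242 to 355 CPM for the first and 237 to 256 against 169 to 290 CPM for the second. Exceptions were *Gaa*, acid alpha-glucosidase, with its highest mean in astrocytes at 46.7 to 80.4 CPM, and *Lipa*, the acid lipase of cholesteryl esters and triglycerides, with its highest mean in the endothelial-marker cluster at 98.6 to 204 CPM. Both overlapped with other types.

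Of the cofactors and lipid-handling genes, *Grn*, which encodes progranulin, was at 471 to 581 CPM in microglia, and the 479 CPM of 1 macrophage library reached into that range while all other types stayed at or below 79.2. *Psap*, the precursor of the saposins, was at 864 to 1125 CPM in microglia and 555 to 901 in astrocytes, and these ranges overlapped. *Npc2*, the soluble cholesterol carrier, was at 514 to 793 CPM in microglia and 484 to 734 in macrophages. *Gm2a*, the activator of ganglioside degradation, had its highest mean in macrophages on 1 to 7 UMIs per library and was not resolved. *Npc1*, the membrane partner of *Npc2* in cholesterol export, differed from it: its level in oligodendrocytes was 197, 274, 231 and 217 CPM against 98.2 to 150 in microglia, and no other type reached above 193.

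Membrane proteins were the most divided group. *Laptm5*, a haematopoietic lysosomal protein, had 2159, 2334, 2203 and 2462 CPM in microglia of female wildtype, female Tg2576, male wildtype and male Tg2576 mice and at most 1627 CPM in macrophages. *Cd68*, the macrosialin used as a phagocyte marker, was at 199 to 348 CPM in microglia and at most 178 in macrophages. *Lamp2* was at 407 to 477 CPM in microglia and overlapped, among the 7 types, only with the macrophages, at 242 to 460. *Lamp1*, in contrast, was highest in oligodendrocytes, at 963, 1257, 1379 and 1410 CPM, above the 533 to 779 CPM of microglia and every other type. *Scarb2*, the sorting receptor of glucocerebrosidase, did not separate oligodendrocytes at 131 to 227 CPM from microglia at 157 to 173. *Cd63*, a tetraspanin of late endosomes, was highest in astrocytes at 608, 576, 797 and 1113 CPM, without overlap among the 7 types. *Laptm4a* was highest in mural cells at 652 to 1096 CPM and overlapped with the 576 to 855 CPM of the endothelial-marker cluster, the 511 to 954 CPM of macrophages and the 482 to 820 CPM of astrocytes. In the clusters that were not compared, 3 genes had a higher mean in choroid plexus (12 to 42 cells per library) than in any of the 7 types, and 3 in OPCs (8 to 36 cells). In choroid plexus, *Lamp2* was at 484 to 596 CPM, *Psap* at 1038 to 1619 and *Cd63* at 737 to 950. The 3 in OPCs were *Gaa*, *Gm2a* and *Ppt1*.

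**Figure D2:**
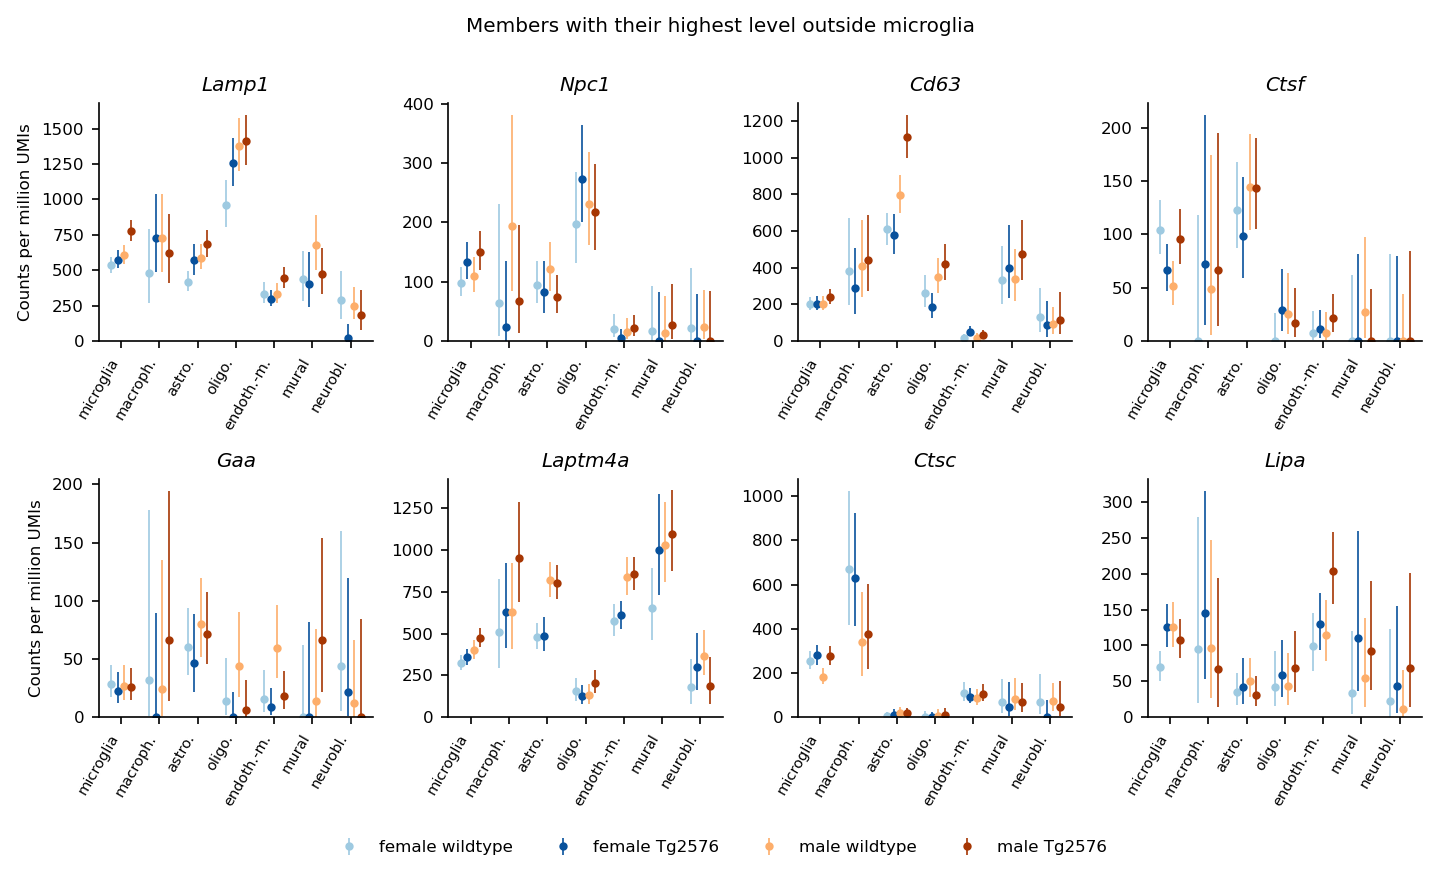
CPM (y axis, from 0) of 8 genes with their highest mean outside microglia, in 7 cell types (x axis); points are the 4 libraries and lines are exact 95% Poisson intervals for counting error. *Lamp1* and *Npc1* peak in oligodendrocytes, *Cd63* in astrocytes, *Ctsc* in macrophages and *Laptm4a* in mural cells.

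Lysosomal genes are known targets of TFEB and its relatives, factors that bind the letters CACGTG. RefSeq windows of 300 bases, from 250 before to 50 after the start site (build GRCm38.p6), were at hand for 27 of the 31 genes. *Ctsb*, *Ctsh*, *Npc1* and *Asah1* had none. CACGTG, which reads the same on both strands, occurred in the windows of 7 of 27 genes, beside 7.15% of all 32851 windows and 8.09% of all 27025 genes, and the longer TCACGTGA, which contains it, in 2 of 27 beside 0.974% of windows and 1.12% of genes. These 7 genes were highest in 3 different cell types, microglia for *Ctsa*, *Ctsd*, *Ctsl* and *Lgmn*, astrocytes for *Ctsf* and *Gaa*, and oligodendrocytes for *Lamp1*. Given 5′ to 3′ on the gene's strand, with the matched letters in capitals, are stretches before the start site of 4 of them, chosen to show where the letters sit: the 2 genes with the longer match, *Lgmn*, and *Lamp1*, which had 4 copies between 61 and 15 bases before its start. They lie at chr2:164833740-164833772 on the plus strand (*Ctsa*), chr7:142387899-142387946 on the minus strand (*Ctsd*), chr12:102439116-102439161 on the minus strand (*Lgmn*) and chr8:13159080-13159160 on the plus strand (*Lamp1*). A match of letters is not evidence of binding.
Ctsa: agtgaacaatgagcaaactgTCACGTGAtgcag
Ctsd: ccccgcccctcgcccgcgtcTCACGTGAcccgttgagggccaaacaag
Lgmn: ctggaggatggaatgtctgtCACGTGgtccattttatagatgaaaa
Lamp1: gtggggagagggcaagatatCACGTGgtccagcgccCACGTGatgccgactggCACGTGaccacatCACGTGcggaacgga

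The microglia fell into 2 clusters that differed in their cytokine transcripts. The first was led by *Ccl4*, *Tnf* and *Il1a*, with *Ccl4* at 1526 to 1811 CPM, and the second had *Ccl4* at 87.9 to 202 CPM. Both expressed all 10 microglial markers. Within every library, 20 of the 31 genes were higher in the cytokine-low cluster, beside 16.6% of 4015 genes with at least 100 microglial UMIs. None was lower in all 4 libraries, beside 11.9% of all genes. For 6 genes, *Ctsd*, *Ctss*, *Cst3*, *Laptm5*, *Grn* and *Lgmn*, the counting interval of the log2 ratio lay above 0 in all 4 libraries, beside 0.897% of all genes, and for none below 0, beside 3.04%. The median log2 ratio was 0.39 over the 31 genes and 0.09 over all genes. *Ctsd* was at 2645, 2287, 3158 and 3147 CPM in the cytokine-high cluster of female wildtype, female Tg2576, male wildtype and male Tg2576 mice and at 3582, 3402, 4021 and 3946 CPM in the cytokine-low one. *Grn* was at 402 to 548 and 631 to 721 CPM. Log2 ratios of *Npc1* were 0.48, 0.90, 0.73 and 1.25 in the same order of libraries, on fewer UMIs. *Ctsl* went the other way in 3 of 4 libraries, with log2 ratios of -0.24, -0.22, -0.19 and 0.05. The microglial markers *P2ry12* and *Cx3cr1* were higher in the cytokine-low cluster in every library too, *P2ry12* at 3464 to 5554 against 2287 to 3350 CPM. As the clusters were formed from other genes of the same cells, these values are a description, and no test was made.

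**Figure D3:**
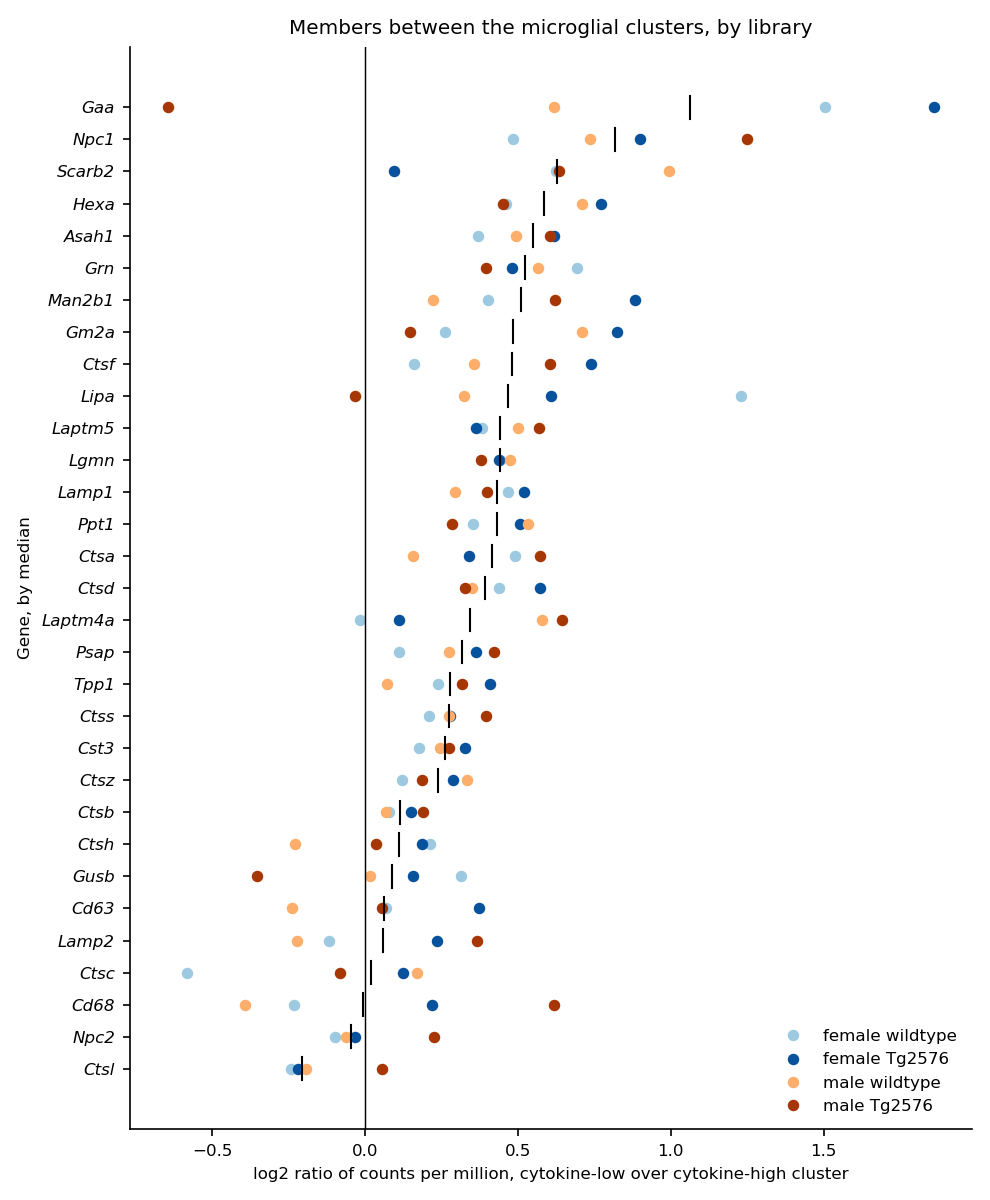
Log2 ratio of CPM, cytokine-low over cytokine-high microglial cluster (x axis), for each of the 31 genes (y axis, ordered by median); points are the 4 libraries and black bars the median. All 4 points lie right of 0 for 20 genes, and *Ctsl* has the lowest median.

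The share of microglia in the cytokine-low cluster was 32.1% and 53.2% in female wildtype and Tg2576 mice and 18.4% and 23.9% in male ones. Genotype values for the genes outside counting error in microglia are followed by values within each cluster.

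The genotype comparison asked which of these genes differ between Tg2576 and wildtype mice in a given cell type. UMIs were summed per library and type and fitted over all genes with edgeR's quasi-likelihood test. Sex was a covariate, and the fit left 1 residual degree of freedom. Over the 7 types, 131 tests of the 31 genes were made and 1 passed the Benjamini-Hochberg threshold of 0.05, *Ctss* in oligodendrocytes. At an unadjusted p under 0.05 in edgeR there were 5 (3.82%), beside 7.14% of the 24458 tests of all genes. DESeq2 called none of them after adjustment and 1 before it.

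In microglia all 31 genes were tested and none was called by edgeR, beside 36 of 7439 genes (0.484%), of which 31 were lower in Tg2576. Only *Ctsh* had an unadjusted p under 0.05 in edgeR, beside 652 of the 7439 genes, and no member did in DESeq2. Log2 fold changes of Tg2576 over wildtype were positive for 19 of the 31 genes, with a median of 0.07 over them and -0.01 over all genes tested. *Ctsh* was at 189 and 246 CPM in female wildtype and Tg2576 mice and at 217 and 293 CPM in male ones, higher in Tg2576 in both sexes, with a log2 fold change of 0.36 (SE 0.17) and an adjusted p of 0.547 in edgeR. *Npc1* was at 98.2 and 133 CPM in females and 109 and 150 CPM in males, with a log2 fold change of 0.40 (SE 0.21) and an adjusted p of 0.575 in edgeR. Neither difference passed the threshold of 0.05 after adjustment over all genes tested.

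Within a sex the only error at hand is counting error. For 3 genes, *Cst3*, *Ctsh* and *Laptm5*, the 95% interval of the log2 ratio lay above 0 in both sexes, beside 0.662% of 8915 genes, and for none below 0 in both, beside 0.942%. These intervals narrow with the UMI count, which for *Cst3* was 19614, 20171, 21568 and 28583 in the 4 libraries, so that small ratios of abundant transcripts fall outside them. The log2 ratio of *Cst3* was 0.25 (0.22 to 0.28) in females and 0.24 (0.22 to 0.27) in males. For *Laptm5* it was 0.11 (0.0036 to 0.22) and 0.16 (0.05 to 0.27), and for *Ctsh* 0.38 (0.02 to 0.74) and 0.43 (0.08 to 0.79). The summed microglial markers were higher in Tg2576 by 0.16 and 0.14 on the same scale, and 5 of the 10 markers had intervals above 0 in both sexes. None had intervals below 0 in both, but *Cx3cr1* was lower in males, at -0.11 (-0.19 to -0.03). The part of this shift of the markers in the values of the lysosomal genes was not tested. Within the cytokine-high cluster the log2 ratio of *Cst3* was 0.13 in females and 0.23 in males, and within the cytokine-low cluster 0.29 and 0.26, all outside counting error. The intervals of *Laptm5* included 0 in both clusters and both sexes, and those of *Ctsh* in all but the cytokine-high cells of males, where the log2 ratio was 0.39 (0.0094 to 0.78). Of the 3 genes *Cst3* alone had intervals above 0 in both sexes under every alternative that gave a microglial value. *Ctsh* no longer did at mitochondrial limits of 5% and 10%, after thinning and with TMM scaling. *Laptm5* no longer did at a limit of 5%, with no limit, with at least 500 genes, at resolution 1, after thinning and with TMM scaling. The fitted log2 fold change of *Cst3* was 0.20 with an adjusted p of 0.821 in edgeR. In fits without a sex term it was -0.06 without the male Tg2576 library and -0.0050 without the female wildtype library. The first set female Tg2576 against wildtype of both sexes, and the second set Tg2576 of both sexes against male wildtype. As *Cst3* was higher in both male libraries than in both female ones, these values cannot separate genotype from sex. Values without either of the other libraries are not given here.

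Other genes passed counting error in 1 sex only, and no difference between the sexes was tested. The share of all genes that did so in 1 sex is not given here for any cell type. These lists therefore do not set the lysosomal genes apart from other genes. *Ctss* was at 7853 and 9212 CPM in male wildtype and Tg2576 microglia, a log2 ratio of 0.23 (0.17 to 0.29), and at 8362 and 8324 CPM in females, a ratio of -0.01. *Lgmn*, *Lamp1*, *Npc2* and *Ctsc* were likewise above counting error in males alone, with log2 ratios of 0.25, 0.36, 0.33 and 0.59. In females alone this was so for *Cd68*, with 0.38, and *Lipa*, with 0.85 on 46 and 72 UMIs. *Ctsf* had intervals on opposite sides of 0, beside 0.572% of all genes: 69 and 38 UMIs in female wildtype and Tg2576 microglia gave a log2 ratio of -0.65, and 27 and 56 UMIs in males gave 0.89. Within the cytokine-low cluster both intervals of *Ctsf* included 0.

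Within the clusters several of these values changed, and no share of all genes is given for them. In cytokine-high cells the log2 ratio of *Ctss* was -0.08 (-0.16 to -0.0082) in females and 0.19 (0.12 to 0.26) in males, on opposite sides of 0, and in cytokine-low cells it was -0.02 and 0.31. In males, the intervals of *Lgmn*, *Lamp1* and *Ctsc* lay above 0 in the cytokine-high cluster and included 0 in the cytokine-low one, and those of *Npc2* lay above 0 in both. *Cd68* had intervals above 0 in cytokine-low cells of both sexes, with log2 ratios of 0.66 and 1.09 on 18 to 77 UMIs per library, and included 0 in cytokine-high cells. For *Lipa* in females the interval lay above 0 in the cytokine-high cluster only. For *Npc1* every interval within a cluster included 0.

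**Figure D4:**
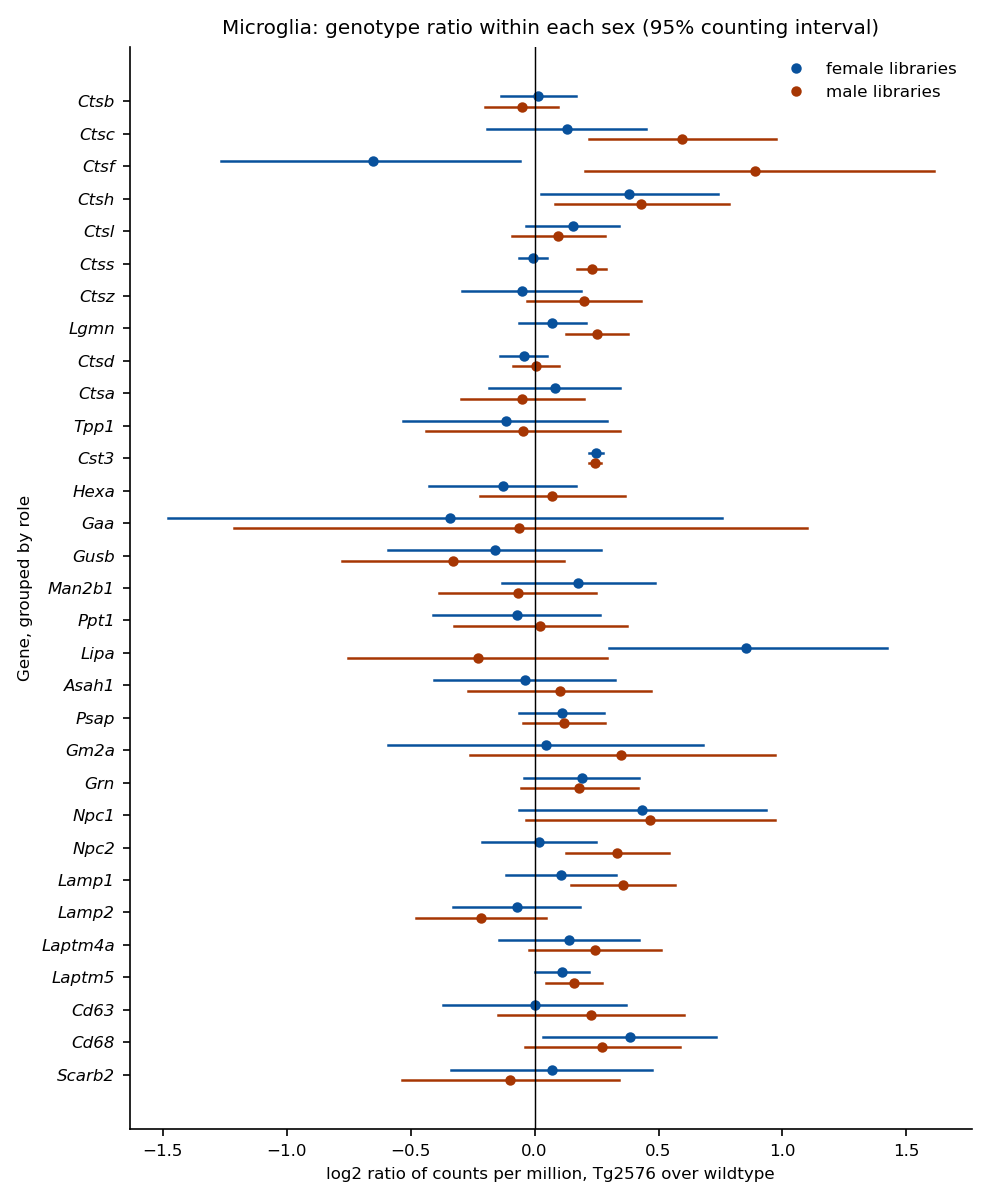
Log2 ratio of CPM in microglia, Tg2576 over wildtype (x axis), for the 31 genes (y axis, grouped by role) in the female and male libraries; lines are exact 95% intervals for counting error only. Both intervals lie above 0 for *Cst3*, *Ctsh* and *Laptm5*, and *Ctsf* lies on opposite sides in the sexes.

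In oligodendrocytes 17 of the 31 genes passed the filter on low counts and 1 was called, beside 10 of 3085 genes (0.324%). This was *Ctss*, with 7 UMIs (49.2 CPM) in female wildtype, 35 (204 CPM) in female Tg2576, 27 (168 CPM) in male wildtype and 64 (365 CPM) in male Tg2576 mice. The ranges of the genotypes did not overlap, and the log2 fold change was 1.39 (SE 0.32) with an adjusted p of 0.0115 in edgeR. *Cst3* and *Npc2* had unadjusted p-values of 0.00386 and 0.0351 in the same edgeR fit and were not called. *Ctss* was the only one of the 31 genes with intervals above 0 in both sexes, beside 0.633% of all genes. Outside female wildtype mice most of these UMIs lay in 3 cells of a library. Such cells held 30 of the 35 UMIs in female Tg2576, 17 of the 27 in male wildtype and 58 of the 64 in male Tg2576 mice. A single cell held 28, 15 and 47 of them in the same order. Cells called doublets held 28 of the 35, 16 of the 27 and 57 of the 64. In female wildtype mice the 7 UMIs lay in 7 cells and 0 of them in called doublets. The 10 microglial markers summed to 197, 361, 462 and 1290 CPM in the same order of libraries, with 2 markers at 0 in each female library, and thus moved in the same direction. There were 0.25, 0.565, 0.365 and 0.283 UMIs of *Ctss* for each UMI of these markers, against 0.275 to 0.352 in microglia. Among oligodendrocytes without any UMI of the markers, *Ctss* was at 40.2, 47.7, 73.9 and 55.3 CPM on 4 to 6 UMIs per library, and the log2 ratio was 0.25 (-1.83 to 2.51) in females and -0.42 (-2.32 to 1.49) in males. Without the called doublets no lysosomal gene was called, and the log2 ratio of *Ctss* was -0.26 in females and -0.61 in males. The call was also lost in the fit of all libraries with no sex term.

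*Cst3* moved with *Ctss* in oligodendrocytes of male mice, at 1610 and 3111 CPM against 1110 and 1199 in females, without passing the test (log2 fold change 0.56, adjusted p = 0.302 in edgeR). With no mitochondrial limit it was called beside *Ctss*. Among oligodendrocytes free of the markers *Cst3* was at 1197, 692, 1170 and 922 CPM. The log2 ratio of Tg2576 over wildtype there was -0.79 (-1.21 to -0.38) in females. In males it was -0.34 (-0.76 to 0.08), an interval that included 0. *Lamp1*, the gene with its highest level in these cells, was at 963 and 1257 CPM in females and 1379 and 1410 CPM in males, above counting error in females alone. So was *Npc2*, with a log2 ratio of 0.88, while *Ctsl* was below counting error in males alone, with -0.65.

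**Figure D5:**
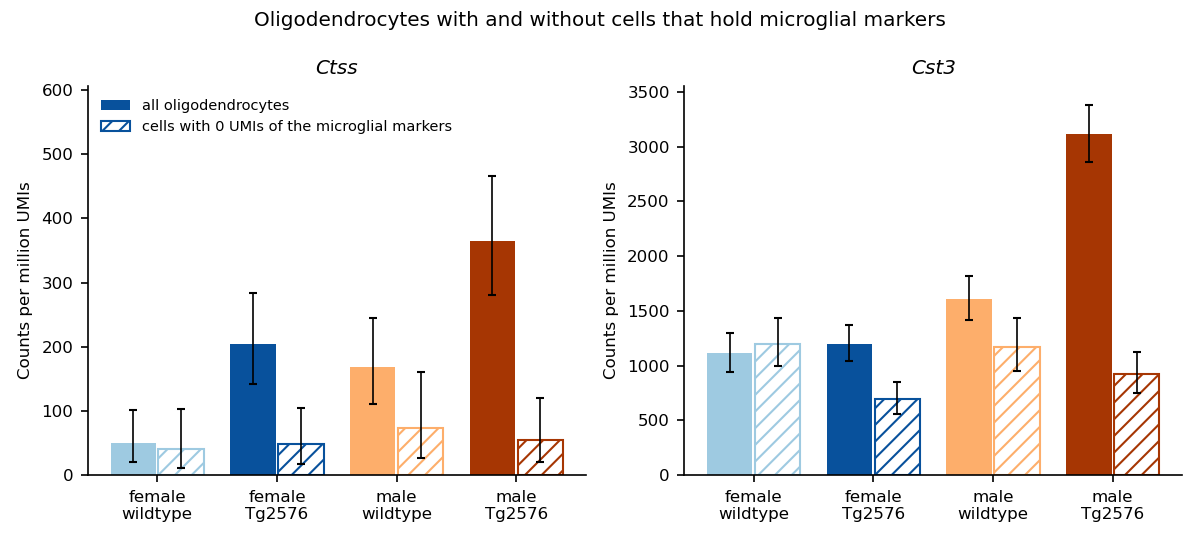
CPM (y axes, from 0) of *Ctss* and *Cst3* in oligodendrocytes of the 4 libraries; filled bars are all oligodendrocytes, hatched bars are cells with 0 UMIs of 10 microglial markers, and black lines are exact 95% Poisson intervals. Filled bars of *Ctss* lie between 49.2 and 365 CPM and hatched bars between 40.2 and 73.9 CPM.

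In astrocytes 27 genes were tested and none was called, beside 6 of 5307 genes (0.113%). None had an unadjusted p under 0.05 in edgeR or DESeq2. *Lamp1* was at 419 and 571 CPM in female wildtype and Tg2576 mice and at 589 and 684 CPM in male ones, and *Ctsl* at 388 and 441 and at 459 and 615 CPM. The log2 fold changes were 0.26 (SE 0.15) and 0.27 (SE 0.16), with adjusted p-values of 0.728 and 0.731 in edgeR. *Cd63*, highest in these cells, was at 608 and 576 CPM in females and 797 and 1113 CPM in males, above counting error in males alone. *Ctss* and *Lgmn* were above counting error in females alone, with log2 ratios of 1.21 and 1.26. The microglial markers summed to 388 CPM in female wildtype and 887 CPM in female Tg2576 astrocytes. The part of microglial RNA in these 2 values was not tested. *Lamp1* and *Cst3* were also above counting error in females alone, with 0.45 and 0.10, and *Asah1* and *Ctsl* in males alone, with 0.92 and 0.42. *Lamp2* and *Gm2a* were below it in females alone, with -0.49 and -1.15.

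In macrophages 16 genes were tested and none was called, beside 0% of 718 genes, with 1 of the 16 at an unadjusted p under 0.05 in edgeR and none in DESeq2. That gene, *Ctsl*, was at 447 and 750 CPM in female wildtype and Tg2576 mice and at 242 and 577 CPM in male ones, on 10 to 31 UMIs per library (log2 fold change 1.05, adjusted p = 0.972 in edgeR). *Cst3* had intervals on opposite sides of 0, beside 1.38% of all genes, with -0.32 for females and 0.25 for males on the log2 scale. *Ctss* was at 5935 and 4331 CPM in females and at 3554 and 3440 CPM in males. The microglial markers summed there to 14742 and 12919 CPM in females and to 9284 and 9922 CPM in males, and their part in these values was not tested. Below counting error in 1 sex were *Ctss* and *Grn* in females, with log2 ratios of -0.45 and -1.50, and *Ctsa* in males, with -2.45 on 10 and 2 UMIs. *Ctsl* was above it in males and *Tpp1* in females, the latter on 2 and 12 UMIs.

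No gene of the 25 tested in the endothelial-marker cluster, the 8 in mural cells or the 7 in neuroblasts or progenitors was called, beside 0% of 5457, 0.274% of 1462 and 0% of 990 genes. None had an unadjusted p under 0.05 in edgeR or DESeq2. In the endothelial-marker cluster *Npc2* was at 142 and 201 CPM in female wildtype and Tg2576 mice and at 193 and 243 CPM in male ones, and *Ctsl* was at 272 and 319 and at 275 and 380 CPM. *Lipa* was at 98.6 and 129 and at 115 and 204 CPM, with a log2 fold change of 0.57 (SE 0.27) and an adjusted p of 0.864 in edgeR. *Lipa*, *Ctsl* and *Lamp1* were above counting error there in males alone and *Cd63* in females alone. *Gm2a* was below it in females alone, with a log2 ratio of -2.16 on 13 and 4 UMIs, and *Gaa* in males alone, with -1.70 on 16 and 6 UMIs. In mural cells *Cst3* was at 1823 and 1888 CPM in females and at 2830 and 3830 CPM in males, above counting error in males alone, and *Ppt1* was below it in females alone on 10 and 1 UMIs. In neuroblasts or progenitors it was at 4500 and 3333 CPM in females and at 2093 and 3434 CPM in males, on opposite sides of 0, beside 0.587% of all genes. The microglial markers there summed to 2261, 1828, 556 and 1786 CPM and moved in the same direction in each sex, and their part in this was not tested. *Ctss*, *Psap* and *Lgmn* were above counting error there in males alone, and *Lamp1* was below it in females alone on 13 and 1 UMIs.

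Beside the 31 genes, 93 others of the lysosomal system were present, from lists of the proton pump, other hydrolases, sorting, other membrane proteins, regulators and cystatins. Of 74 with at least 100 UMIs, 31 were highest in microglia, beside 18.1% of all genes, 16 of them among the 23 other hydrolases, such as *Pld4* and *Fuca1*. Of 16 genes of the proton pump, which acidifies the lumen, 2 were highest in microglia, a share near that of all genes. In the genotype fits 200 tests of these genes were made over the 7 types, 73 of them in microglia, and edgeR called none in either direction, with 8 at an unadjusted p under 0.05, 2 of them in microglia, beside 7.14% of the tests of all genes. DESeq2 called none, and 0 at an unadjusted p under 0.05. In microglia, *Atp6v0b*, a subunit of the pump, was at 251 to 275 CPM, *Cd164* at 255 to 351, *M6pr*, a mannose 6-phosphate receptor, at 179 to 239, *Tfe3* at 152 to 195 and *Cstb*, a cytosolic inhibitor of cathepsins, at 57.6 to 102.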

How the data were processed

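The deposited files hold raw UMI counts per gene symbol and cell barcode, made by the authors with the Drop-seq pipeline (the submitters' processing notes name mm10 and Seurat 3.1.4). The aligner and annotation are not given in the sources used here. The members and lists were chosen with earlier results of these data known. Cells with 200 to 7000 genes and at most 20% mitochondrial UMIs were kept and clustered with Seurat 5.3.0 (SCTransform, 2500 variable genes without the lysosomal genes, 19 components, resolution 0.5). Clusters were named from listed markers. Doublets were not removed, and Scrublet marked 1.90% of cells. Levels carry exact Poisson intervals, and log2 ratios within a sex exact binomial ones (95%). Both cover counting error only. Genotype was tested with edgeR 4.0.16 (glmQLFit, glmQLFTest, filterByExpr, TMM factors, sex as covariate, Benjamini-Hochberg adjustment over all genes tested), and DESeq2 1.42.0 was an alternative. With sex as covariate, the 1 residual degree of freedom of the 4 pooled libraries holds how far the genotype effect differed between the sexes. The p-values thus do not measure a spread between mice or between libraries of the same sex and genotype. A genotype effect that differs by sex counts as spread in them. The fits were tested on simulated data, with the same fixed dispersion for every gene and no effect of sex. The shares found may therefore differ from those of the real libraries. At a simulated log2 change of 1 they found 38.3% of the changed genes in microglia, 32.4% in oligodendrocytes and 22.7% in astrocytes. The highest share was 63.6%, in macrophages, where only 718 genes passed the filter and were simulated, against 7439 in microglia. At a log2 change of 2 they found 73.3% to 98.8%, and 2 to 8 unchanged genes per type were called. A gene that was not called may therefore still differ between the genotypes. Named per type were genes called, genes outside counting error in both sexes, and otherwise the 2 with the largest mean log2 ratio among those with at least 100 UMIs in each sex. *Cd63*, *Lamp1* in oligodendrocytes, *Lipa* and genes outside counting error in 1 sex, and those higher in a cluster not compared, were added after their values were seen. Total counts per deposited library were 1926857 to 2294296. Alternatives varied cell filters, clustering, scaling and the libraries included. For the other lysosomal lists, the gene of each list with the most UMIs in microglia was named, except for 1 list whose gene is not reported here.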

Additional observations from a re-analysis of the deposited data

Results flagged for a closer look

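For 3 gene and cell type pairs the log2 ratio of Tg2576 over wildtype lay outside counting error in opposite directions in the sexes. For *Ctsf* in microglia it was -0.65 for females and 0.89 for males. *Cst3* in macrophages had -0.32 and 0.25, and *Cst3* in neuroblasts or progenitors had -0.43 and 0.71 in the same order. With 1 library for each sex and genotype the difference between the sexes was not tested. The mitochondrial share of the kept cells was also higher in Tg2576 in females and lower in Tg2576 in males, and its part in these values was not tested. Each of the 3 ended under some alternatives: *Ctsf* at a mitochondrial limit of 5%, with at least 500 genes, after thinning and in cytokine-low cells alone, *Cst3* in macrophages at resolution 1 and after thinning, and *Cst3* in neuroblasts or progenitors without called doublets.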

How the results depend on the processing

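No paired analysis was possible because each sex and genotype has 1 library and the labels give no shared replicate. Fits on the 2 microglial clusters alone and on oligodendrocytes without marker UMIs were chosen after seeing the data. Of the values recomputed under an alternative, 563 kept their direction and side of the threshold, 122 moved, 8 were weaker and 6 were reversed, and the cause of these changes was not tested. The count of lysosomal genes called in oligodendrocytes was 1 and became 2 with no mitochondrial limit (*Cst3* and *Ctss*). It was 0 without called doublets, with library totals only, with DESeq2, with no filter on low counts and with no sex term. The log2 fold change of *Ctss* there was 1.43 with library totals only, 1.47 with DESeq2, 1.35 with no filter and 1.34 with no sex term, none called. On leaving out a library, in fits that also had no sex term, it ran from 0.75 to 2.46. Without called doublets its log2 ratio was -0.26 in female and -0.61 in male oligodendrocytes, and -0.42 in male ones without marker UMIs.

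Genes with intervals on opposite sides in the sexes numbered 1 instead of 0 in astrocytes (mitochondrial limit of 10% or none, without doublets, or totals without mitochondrial genes and *Malat1*) and in the endothelial-marker cluster (limit of 10%, without doublets). In macrophages they were 0 at resolution 1 or thinned and 2 with all variable genes. In microglia they were 0 at a limit of 5%, with at least 500 genes, thinned, or in cytokine-low cells alone, and 2 with TMM scaling or in cytokine-high cells alone. In neuroblasts they were 0 without doublets. Genes higher in both sexes became 1 in microglia (TMM scaling, cytokine-high cells alone), 1 in macrophages (all variable genes), 1 in neuroblasts (without doublets), and in oligodendrocytes 2 (limit of 10%) or 0 (without doublets, thinned), and 1 was lower in both in thinned macrophages. *Cst3* had a log2 ratio of 0.0090 in female macrophages at resolution 1, -0.43 in male macrophages thinned, and 0.027 in female neuroblasts without doublets.

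The 11 genes highest in microglia without overlap became 19 at a limit of 10%, 2 with no limit, 19 with at least 500 genes, 6 at resolution 1, 18 with all variable genes and 7 thinned. Only 4 types were left to compare at the limit of 10% and with at least 500 genes, without macrophages, and 6 with all variable genes or thinned, so that these counts also follow the types dropped. The 20 genes highest in microglia became 15 to 22. 1 gene was lower in the cytokine-low cluster in all 4 libraries with no mitochondrial limit or all variable genes. Over the alternatives, genes called among all genes ranged from 0 to 41 in microglia, 0 to 25 in astrocytes, 0 to 24 in the endothelial-marker cluster, 0 to 20 in neuroblasts, 0 to 15 in macrophages, 0 to 12 in oligodendrocytes and 0 to 6 in mural cells. TMM scaling moved the median ratio of female macrophages by 0.138.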
